A study of Homo sapiens with 16 samples.

Results

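Integrins are the receptors through which epithelial cells hold on to the extracellular matrix, and 10 integrin subunit genes of epithelial cells were followed here in SW480 cells, an established human colorectal cancer line. A gene's members were all probe sets of the Affymetrix expression array that the probe annotation pairs with that 1 symbol. They numbered 28 probe sets of 9 genes, out of 54675 probe sets and 19775 genes on the array. All probe sets of the 10th gene, ITGB6, are annotated to a second gene too, so ITGB6 was not analysed here. Where a gene had several probe sets, its value was read from the brightest, and levels are log2 values made by the authors with RMA, a method that background-corrects, equalises and summarises array signals.

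The study asked what TAZ, the transcriptional co-activator encoded by WWTR1, does in cells with active Wnt signalling, and it compared 4 groups of 4 arrays each. The siTAZ cells were stably transfected with empty vector and received siRNA to TAZ, and the sibcat cells carried the same empty vector and received siRNA to beta-catenin. The APC cells were stably transfected with wild-type APC, the tumour suppressor that drives beta-catenin breakdown, and received control siRNA. The siGFP cells carried empty vector and control siRNA, and served as control for the other 3 groups. All groups were SW480 cells passed through siRNA transfection, so the APC cells differ from siGFP cells in the stable vector and the other groups in the siRNA alone. The labels do not state whether the APC cells are 1 line or several, and they name no more than 1 siRNA treatment per target.

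An integrin is a pair of 1 alpha and 1 beta subunit, and the pairing sets the ligand. ITGB1 pairs with many alpha subunits: with ITGA2 it binds collagen, with ITGA3 or ITGA6 laminin, and with ITGA5 fibronectin. ITGA6 also pairs with ITGB4 in hemidesmosomes, the junctions that tie keratin filaments to the basement membrane. ITGAV pairs with ITGB5 to bind vitronectin and with ITGB8 to bind latent TGF-beta, which it helps to release as active growth factor.

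The promoters of 3 subunits whose mRNA levels moved most between the groups are printed so that the letters upstream of each start can be read beside the values. Each runs from 250 bases before the RefSeq transcription start to 5 bases after it, 5′ to 3′ on the gene's own strand, in build GRCh38.p14. The ITGA5 promoter lies at chr12:54419262-54419516 on the minus strand, that of ITGAV at chr2:186589806-186590060 on the plus strand and that of ITGB8 at chr7:20330650-20330904 on the plus strand. Capitals mark matches to 2 of the motifs searched, GGAATG and TGANTCA.
ITGA5: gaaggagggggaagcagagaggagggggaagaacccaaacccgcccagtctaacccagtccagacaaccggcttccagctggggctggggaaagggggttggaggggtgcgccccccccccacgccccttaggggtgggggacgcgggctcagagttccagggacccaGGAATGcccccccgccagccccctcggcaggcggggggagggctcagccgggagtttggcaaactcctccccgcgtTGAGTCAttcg
ITGAV: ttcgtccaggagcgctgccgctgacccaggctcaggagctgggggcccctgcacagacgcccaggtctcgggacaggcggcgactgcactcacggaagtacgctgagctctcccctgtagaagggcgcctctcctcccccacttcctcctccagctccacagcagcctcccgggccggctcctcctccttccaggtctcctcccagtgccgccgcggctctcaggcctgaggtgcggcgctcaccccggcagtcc
ITGB8: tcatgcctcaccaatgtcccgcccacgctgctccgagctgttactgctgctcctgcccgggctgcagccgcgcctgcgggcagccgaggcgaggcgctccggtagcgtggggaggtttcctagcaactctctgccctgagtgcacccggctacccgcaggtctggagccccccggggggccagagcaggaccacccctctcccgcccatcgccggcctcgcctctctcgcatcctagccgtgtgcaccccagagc

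RefSeq promoter windows reaching 50 bases past the start matched 7 of the 9 genes, 12 windows in all, and 3 motifs were searched in them on both strands. The core site of TEAD factors, the DNA-binding partners of TAZ, was searched as GGAATG and stood in 2 of the 12 windows, against 14.0% of all 35116 windows. One match lay 82 bases before the ITGA5 start and the other 182 bases before an ITGB1 start. The core site of TCF/LEF factors, the DNA-binding partners of beta-catenin, was searched as CTTTGA and stood in 0 of the 12 windows, against 12.9% of all windows. The motif of the AP-1 factors was searched as TGANTCA and stood in 1 of the 12 windows, 6 bases before the ITGA5 start, against 7.71% of all windows. These motifs share no letters where they matched. They are matches of letters, not measured binding.

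The siRNA targets followed the labels. WWTR1 ran from 6.77 to 7.06 in siTAZ arrays, against 10.13 to 10.39 in siGFP arrays. CTNNB1, which encodes beta-catenin, ran from 9.94 to 10.43 in sibcat arrays, against 12.97 to 13.27 in siGFP arrays. In APC cells CTNNB1 was lower by 0.375 (limma, adjusted p = 0.018). The co-activator gene YAP1 fell by 1.325 in sibcat cells (limma, adjusted p = 3.0e-09) and by 0.76 in APC cells (limma, adjusted p = 2.6e-06). Its brightest set ran from 11.12 to 11.35 in siTAZ arrays, against 11.14 to 11.45 in siGFP arrays, and was not called. In its brightest probe set WWTR1 itself was higher in sibcat cells, by 0.70 (limma, Benjamini-Hochberg adjusted p = 1.8e-06), and in APC cells, by 0.72 (limma, adjusted p = 1.2e-06). A second WWTR1 set ran from 9.18 to 9.57 in sibcat and 9.53 to 9.85 in APC arrays, against 8.63 to 9.09 in siGFP arrays. The dimmest WWTR1 set did not share the rise. It ran from 7.58 to 7.84 in sibcat and 7.89 to 8.10 in APC arrays, against 7.86 to 8.06 in siGFP arrays. APC ran from 8.05 to 8.43 in APC arrays, against 7.75 to 8.45 in siGFP arrays, in its brightest probe set. A dimmer one ran from 6.45 to 6.64 in APC arrays, against 6.07 to 6.21 in siGFP arrays. Another, under the median level of all probe sets, ran from 4.56 to 5.51 in APC arrays, against 3.95 to 3.98 in siGFP arrays. The remaining sets overlapped, at 5.44 to 5.52 against 5.36 to 5.70 and at 4.14 to 4.42 against 4.04 to 4.23. Keratin and adhesion markers of epithelium were bright, with KRT18 at 14.20 and EPCAM at 12.80 in siGFP cells, and CDH17 was the dimmest of the 8 at 3.72. The 6 fibroblast markers ran from 2.99 (LUM) to 6.91 (COL1A1) and the 4 endothelial markers from 2.65 (KDR) to 5.89 (PECAM1) in siGFP cells. Over 54675 probe sets, the arrays of 1 group correlated at 0.993 or more.

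**Figure D1:**
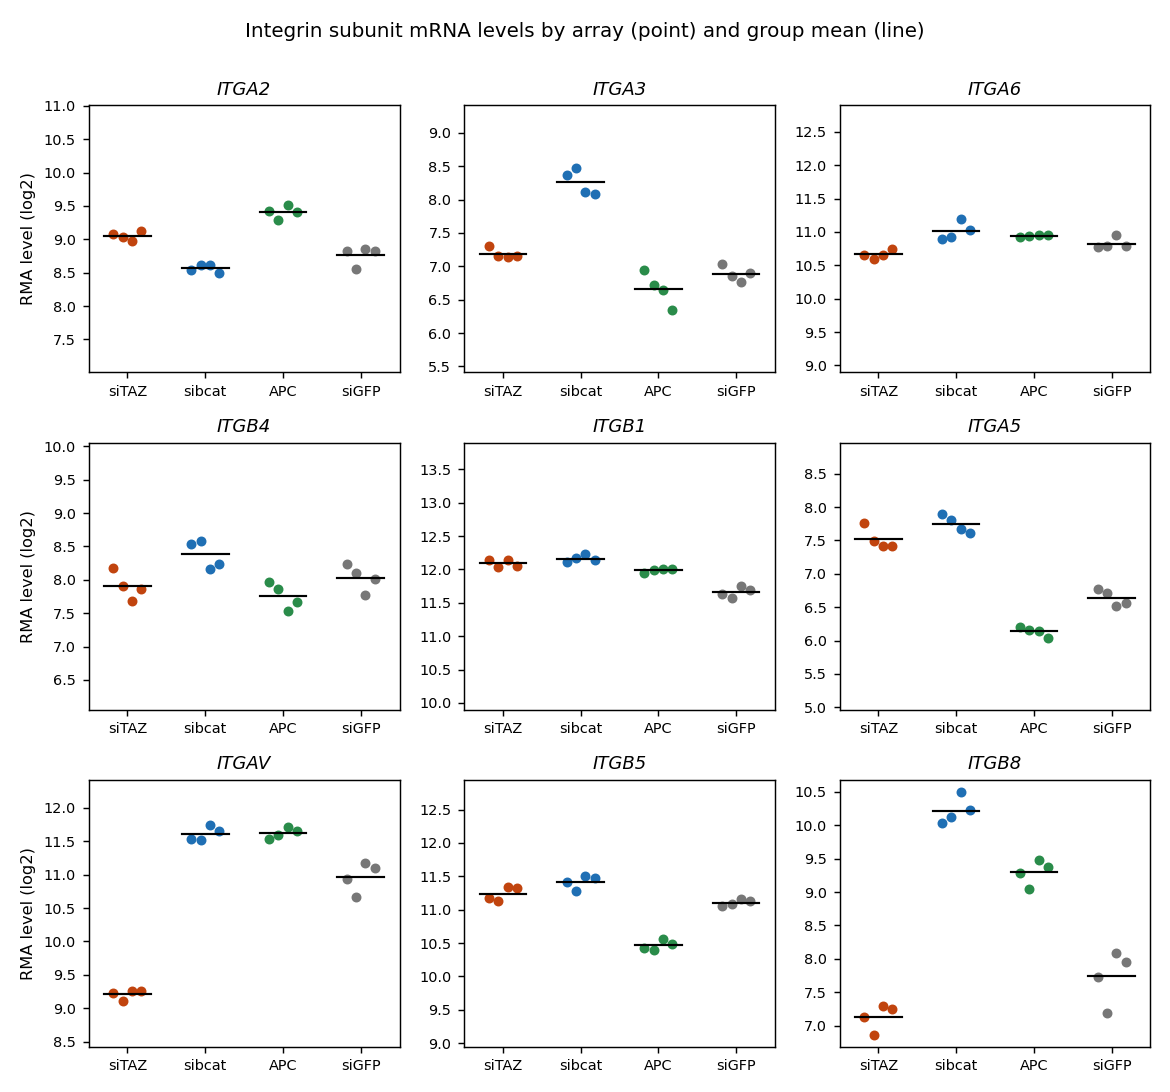
RMA level (log2, y axis, 4 units high in each panel) of 9 integrin subunit genes in their brightest probe set, for siTAZ, sibcat, APC and siGFP cells; each point is 1 array and each line the mean of 4 arrays. ITGAV and ITGB8 stand lowest in siTAZ cells and high in sibcat and APC cells, while ITGA5 and ITGB5 stand lowest in APC cells.

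In siTAZ cells 3 of the 9 integrin genes rose, 2 fell and 4 had no call. The genes that rose were ITGA5, ITGB1 and ITGA2, and those that fell were ITGAV and ITGB8. Calls are at a Benjamini-Hochberg adjusted p under 0.05 in 1 limma fit of all 16 arrays, adjusted over all 54675 probe sets. Among all genes, 15.2% were called higher and 11.8% lower in siTAZ cells. Among genes with a group mean reaching the median level of all probe sets (5.10), as all 9 integrin genes do, 39.8% were called in either direction. The count of 5 of 9 has to be read against that share. The median difference of the 9 genes was 0.13, against 0.01 over all genes.

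In sibcat cells 6 of the 9 genes rose and 1 fell. ITGB8, ITGA3, ITGA5, ITGAV, ITGB1 and ITGB5 rose, and ITGA2 fell. Among all genes, 17.1% were called higher and 15.8% lower in sibcat cells, and 48.1% of the genes reaching the median level were called in either direction. The median difference of the 9 genes was 0.50, against 0 over all genes. In APC cells, 4 of the 9 genes rose (ITGB8, ITGAV, ITGA2 and ITGB1) and 2 fell (ITGB5 and ITGA5). There 15.0% of all genes were called higher, 15.7% lower and 43.3% of those reaching the median level either way. The median difference of the 9 genes was 0.12, against 0.01 over all genes. These 3 comparisons use the same 4 siGFP arrays, so their values are given side by side and not as separate support for each other.

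**Figure D2:**
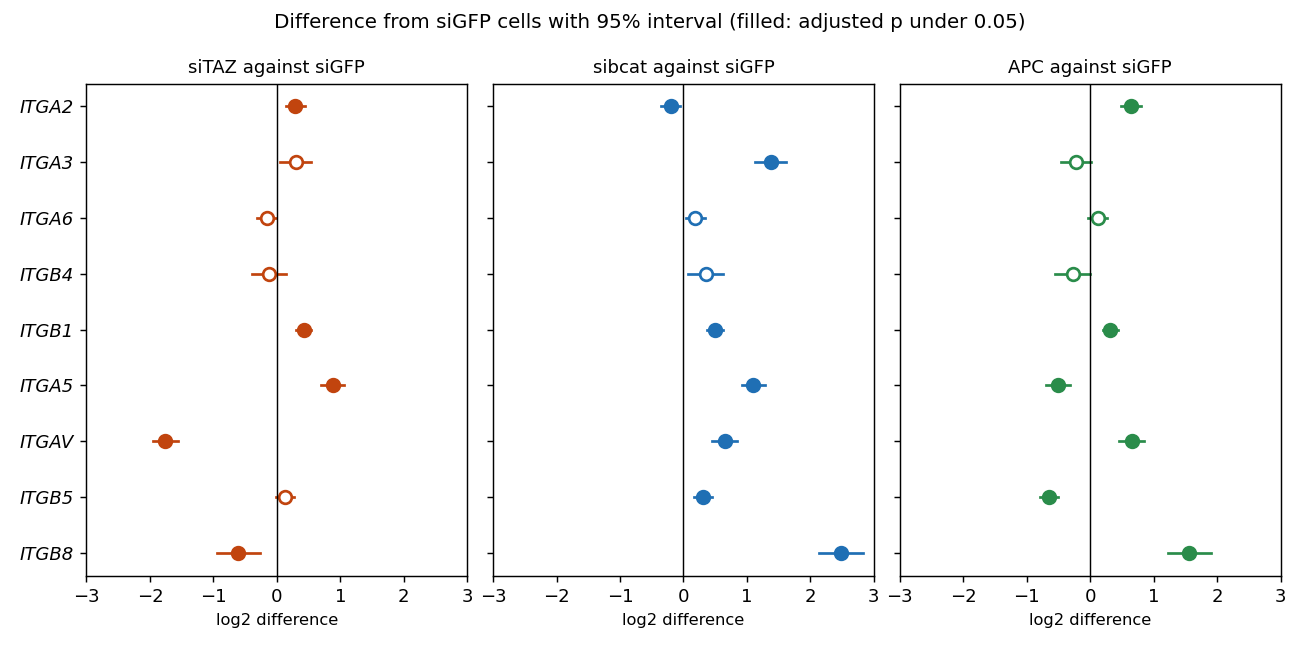
Log2 difference (x axis) of each integrin gene in siTAZ, sibcat and APC cells from siGFP cells, with the 95% interval of the limma fit; filled points are called at an adjusted p under 0.05. ITGAV fell by 1.76 in siTAZ cells, ITGB8 rose by 2.48 in sibcat cells, and ITGA6 and ITGB4 are unfilled in all 3 panels.

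ITGB8, the beta subunit that with ITGAV captures latent TGF-beta, had the widest spread of group means of the 9 genes, 3.09. Its levels were 7.13, 6.86, 7.29 and 7.24 in siTAZ arrays A to D, 10.03, 10.12, 10.50 and 10.23 in sibcat arrays, 9.29, 9.05, 9.48 and 9.37 in APC arrays, and 7.72, 7.19, 8.08 and 7.95 in siGFP arrays. All sibcat and APC arrays stood above all siGFP arrays, and the siTAZ arrays overlapped the siGFP arrays through siGFP array B. The rise in sibcat cells was 2.48 (SE 0.16, limma adjusted p = 3.3e-09), which is 5.60-fold. The rise in APC cells was 1.56 (SE 0.16, limma adjusted p = 9.8e-07), which is 2.95-fold.

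ITGB8 fell by 0.60 in siTAZ cells (SE 0.16, limma adjusted p = 0.012). This fall rested on 1 of its 5 probe sets. The difference was -0.46 in arrays A and B alone (limma adjusted p = 0.18) and -0.75 in arrays C and D alone (limma adjusted p = 0.0023). With the 3′ to 5′ signal of ACTB as a covariate it was -0.39 (limma adjusted p = 0.18). Another 3 dimmer probe sets of ITGB8 rose with it, by 1.38 to 1.93 in sibcat cells and by 0.54 to 0.98 in APC cells. Their differences in siTAZ cells were -0.26, -0.20 and -0.06, none of them called. The fifth set, with group means from 2.85 to 3.08, was not called in any of these comparisons.

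ITGAV, the alpha subunit that ITGB5 and ITGB8 depend on for a partner, has 1 probe set. Its levels were 9.22, 9.10, 9.26 and 9.26 in siTAZ arrays, 11.54, 11.52, 11.74 and 11.66 in sibcat arrays, 11.53, 11.59, 11.72 and 11.66 in APC arrays, and 10.94, 10.66, 11.17 and 11.10 in siGFP arrays. The siTAZ arrays lay far below every other array, and the sibcat and APC arrays lay above all siGFP arrays. ITGAV fell by 1.76 in siTAZ cells (SE 0.094, limma adjusted p = 6.3e-10), to 29.6% of the siGFP level. It rose by 0.65 in sibcat cells (SE 0.094, limma adjusted p = 4.2e-05) and by 0.66 in APC cells (SE 0.094, limma adjusted p = 3.9e-05). The siTAZ difference was -1.64 in arrays A and B alone and -1.88 in arrays C and D alone.

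ITGA5, the alpha subunit of the main fibronectin receptor, also has 1 probe set and ran a different course. Its levels were 7.76, 7.49, 7.42 and 7.42 in siTAZ arrays, 7.89, 7.80, 7.67 and 7.61 in sibcat arrays, 6.21, 6.16, 6.14 and 6.04 in APC arrays, and 6.77, 6.71, 6.52 and 6.57 in siGFP arrays. Every siTAZ and sibcat array lay above the siGFP arrays, and every APC array lay below them. ITGA5 rose by 0.88 in siTAZ cells (SE 0.087, limma adjusted p = 9.7e-07), by 1.10 in sibcat cells (SE 0.087, limma adjusted p = 3.7e-08), and fell by 0.51 in APC cells (SE 0.087, limma adjusted p = 0.00027). Its promoter, printed above, was the 1 window of the 12 with both a GGAATG and a TGANTCA match.

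ITGB5, which pairs with ITGAV as a vitronectin receptor, was higher in sibcat cells and lower in APC cells. Its levels were 11.17, 11.13, 11.34 and 11.32 in siTAZ arrays, 11.41, 11.28, 11.50 and 11.48 in sibcat arrays, 10.42, 10.39, 10.56 and 10.49 in APC arrays, and 11.05, 11.09, 11.16 and 11.13 in siGFP arrays. The APC arrays were below all others, the sibcat arrays were above all siGFP arrays, and the siTAZ arrays overlapped the siGFP arrays. ITGB5 fell by 0.64 in APC cells (SE 0.068, limma adjusted p = 1.3e-06) and rose by 0.31 in sibcat cells (SE 0.068, limma adjusted p = 0.0022). The sibcat rise was 0.28 in arrays A and B alone (limma adjusted p = 0.090) and 0.34 in arrays C and D alone (limma adjusted p = 0.0091). In siTAZ cells the difference was 0.13, with a 95% interval from -0.01 to 0.28 and no call. It was called with the ACTB covariate, at 0.26 (limma adjusted p = 0.0095), and as the mean of all 4 probe sets, at 0.18 (limma adjusted p = 0.012).

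The 3 other probe sets of ITGB5 had differences of -0.89, -0.60 and -0.54 in APC cells, and the first 2 were called lower. In sibcat cells the same sets differed by 0.78, 0.02 and 0.11, and the first was called. ITGB5 and ITGAV thus moved in opposite directions in APC cells, where ITGAV rose and ITGB5 fell.

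ITGB1, the beta subunit that most other alpha subunits need, was the 1 gene of the 9 called higher in all 3 groups. Its brightest probe set had levels of 12.14, 12.03, 12.14 and 12.05 in siTAZ arrays, 12.11, 12.17, 12.23 and 12.14 in sibcat arrays, 11.94, 11.99, 12.01 and 12.00 in APC arrays, and 11.64, 11.57, 11.75 and 11.70 in siGFP arrays. Every array of the 3 groups was above every siGFP array. The rise was 0.42 in siTAZ cells (SE 0.057, limma adjusted p = 2.6e-05), 0.50 in sibcat cells (SE 0.057, limma adjusted p = 2.9e-06) and 0.32 in APC cells (SE 0.057, limma adjusted p = 0.00035).

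The probe sets of ITGB1 differed among themselves in siTAZ cells. Another 2 sets reached the median level and were called higher in sibcat cells, by 0.29 and 0.41, and in APC cells, by 0.53 and 0.40. In siTAZ cells the same 2 sets differed by 0.06 and 0.17, and neither was called. The siTAZ rise of ITGB1 therefore rests on its brightest probe set, and the mean of all 7 sets gave 0.15 (limma adjusted p = 0.050) with no call. The remaining 4 sets had means between 2.2 and 3.0 and were not called in these comparisons.

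ITGA2, the collagen-binding alpha subunit, was highest in APC cells. Its levels were 9.08, 9.04, 8.98 and 9.12 in siTAZ arrays, 8.54, 8.61, 8.61 and 8.49 in sibcat arrays, 9.42, 9.29, 9.52 and 9.41 in APC arrays, and 8.83, 8.56, 8.85 and 8.82 in siGFP arrays. The APC and siTAZ arrays all lay above the siGFP arrays. The sibcat arrays overlapped them through siGFP array B. ITGA2 rose by 0.65 in APC cells (SE 0.072, limma adjusted p = 2.4e-06), which is 1.56-fold, and by 0.29 in siTAZ cells (SE 0.072, limma adjusted p = 0.0071). The siTAZ rise was 0.36 in arrays A and B alone (limma adjusted p = 0.093) and 0.21 in arrays C and D alone (limma adjusted p = 0.14), with no call in either.

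The fall of ITGA2 in sibcat cells, by 0.20 (SE 0.072, limma adjusted p = 0.048), lay at the threshold. It kept its call in 7 of 21 alternatives, with adjusted p-values of the limma fit from 0.0044 to 0.58. Leaving out sibcat array A, B, C or D, or siGFP array A, C or D, ended the call each time, with differences from -0.22 to -0.17. The second probe set of ITGA2 rose by 0.30 in siTAZ cells and by 0.46 in APC cells, both called, and differed by -0.04 in sibcat cells with no call.

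ITGA3, the alpha subunit of a laminin receptor, stood apart in sibcat cells. Its 1 probe set had levels of 7.31, 7.15, 7.14 and 7.15 in siTAZ arrays, 8.37, 8.48, 8.12 and 8.08 in sibcat arrays, 6.95, 6.72, 6.65 and 6.34 in APC arrays, and 7.04, 6.85, 6.77 and 6.90 in siGFP arrays. All sibcat arrays lay above every other array, and the APC arrays overlapped the siGFP arrays. ITGA3 rose by 1.37 in sibcat cells (SE 0.11, limma adjusted p = 6.7e-08), which is 2.59-fold. It was 0.30 higher in siTAZ cells without a call (limma adjusted p = 0.081), and the fit with the replicate letter as a block called it (limma adjusted p = 0.020). In APC cells the difference was -0.22 (limma adjusted p = 0.18), and without APC array A it was -0.32 and called (limma adjusted p = 0.048).

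ITGA6, the laminin-binding partner of both ITGB1 and ITGB4, moved least of the 9 genes in its brightest probe set, with group means spanning 0.35. Its levels were 10.66, 10.59, 10.66 and 10.75 in siTAZ arrays, 10.90, 10.92, 11.20 and 11.03 in sibcat arrays, 10.93, 10.94, 10.96 and 10.95 in APC arrays, and 10.77, 10.79, 10.95 and 10.79 in siGFP arrays. The siTAZ arrays all lay just below the siGFP arrays, and the other groups overlapped them. The difference was -0.16 in siTAZ cells (95% interval -0.31 to -0.01), 0.19 in sibcat cells (0.04 to 0.33) and 0.12 in APC cells (-0.03 to 0.27), and none was called.

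The sibcat difference of ITGA6 was called with the replicate letter as a block (limma adjusted p = 0.029). It was also called without sibcat array A, sibcat array B or siGFP array C (limma adjusted p = 0.034, 0.044 and 0.030). In all, the sibcat difference gained the call in 10 of 21 alternatives, and the siTAZ difference in 2 of 21. The mean of all ITGA6 probe sets was called lower in siTAZ cells, at -0.34 (limma adjusted p = 2.0e-05). In APC cells that mean was called higher, at 0.16 (limma adjusted p = 0.012), and in sibcat cells it was not called. The second probe set of ITGA6 fell by 0.52 in siTAZ cells (limma adjusted p = 2.2e-05) and rose by 0.20 in APC cells (limma adjusted p = 0.046), so the 2 sets differ in their calls.

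ITGB4, the hemidesmosome subunit that pairs with ITGA6 alone, spread over its arrays within each group, and its group means spanned 0.62. Its levels were 8.18, 7.91, 7.69 and 7.86 in siTAZ arrays, 8.54, 8.58, 8.16 and 8.24 in sibcat arrays, 7.97, 7.86, 7.53 and 7.67 in APC arrays, and 8.24, 8.10, 7.78 and 8.01 in siGFP arrays. All 3 groups overlapped the siGFP arrays, and in each group array C was lowest. The difference was -0.12 in siTAZ cells, 0.35 in sibcat cells (limma adjusted p = 0.060) and -0.28 in APC cells (limma adjusted p = 0.15), and none was called.

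With the replicate letter as a block, ITGB4 was called higher in sibcat cells (limma adjusted p = 0.00028) and lower in APC cells (limma adjusted p = 0.0020). With the ACTB covariate it was called lower in siTAZ cells, at -0.43 (limma adjusted p = 0.0039). The sibcat difference was also called without sibcat array C or siGFP array A (limma adjusted p = 0.033 and 0.036). The 4 other probe sets of ITGB4 were dim, with group means up to 5.5, and 1 of their 12 differences from siGFP was called, a rise of 0.27 in sibcat cells.

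**Figure D3:**
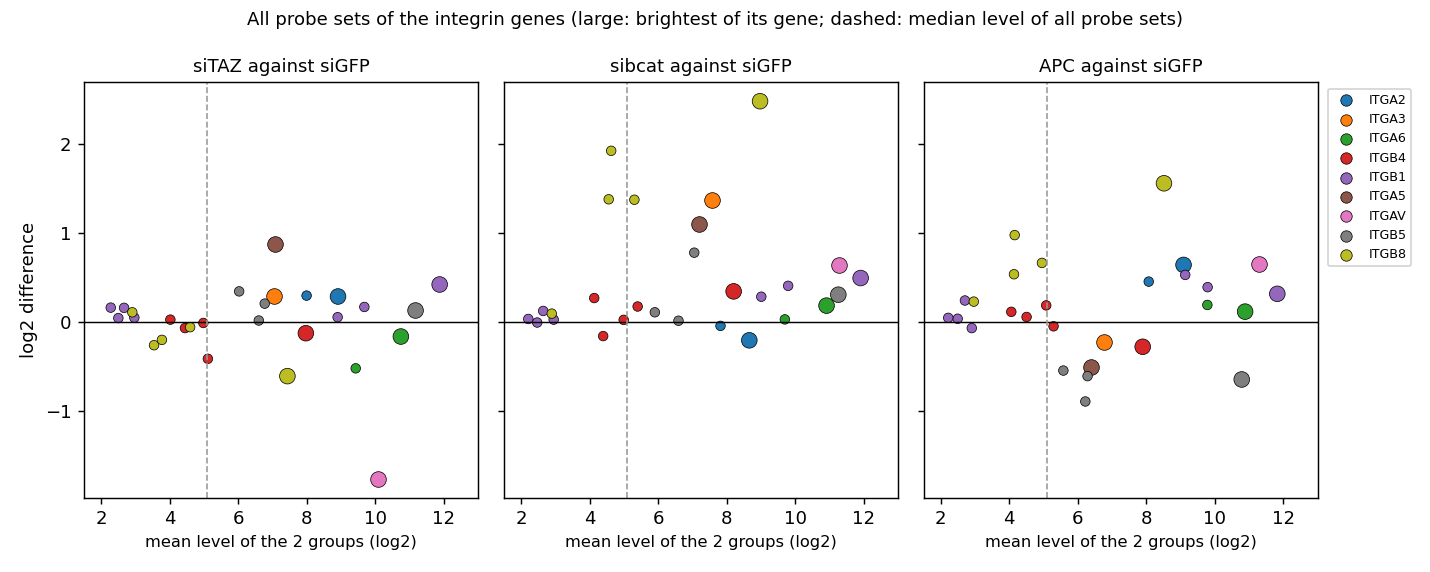
Log2 difference (y axis) against the mean level of both groups (log2, x axis) for all 28 probe sets of the 9 genes in siTAZ, sibcat and APC cells against siGFP cells; large points are the brightest set of a gene and the dashed line is the median level of all probe sets, 5.10. Sets of ITGB8 rise together in sibcat and APC cells, and most sets left of the line lie near 0.

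Counted over all 28 probe sets, 4 were called higher and 3 lower in siTAZ cells, where 20.3% of all probe sets were called. In sibcat cells 13 were called higher and 1 lower, against 25.6% of all probe sets. In APC cells 11 were called higher and 4 lower, against 24.0% of all probe sets. Of the 28, 7 stayed under the median level in all groups, and sets of 1 gene measure the same transcripts and are not independent.

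**Figure D4:**
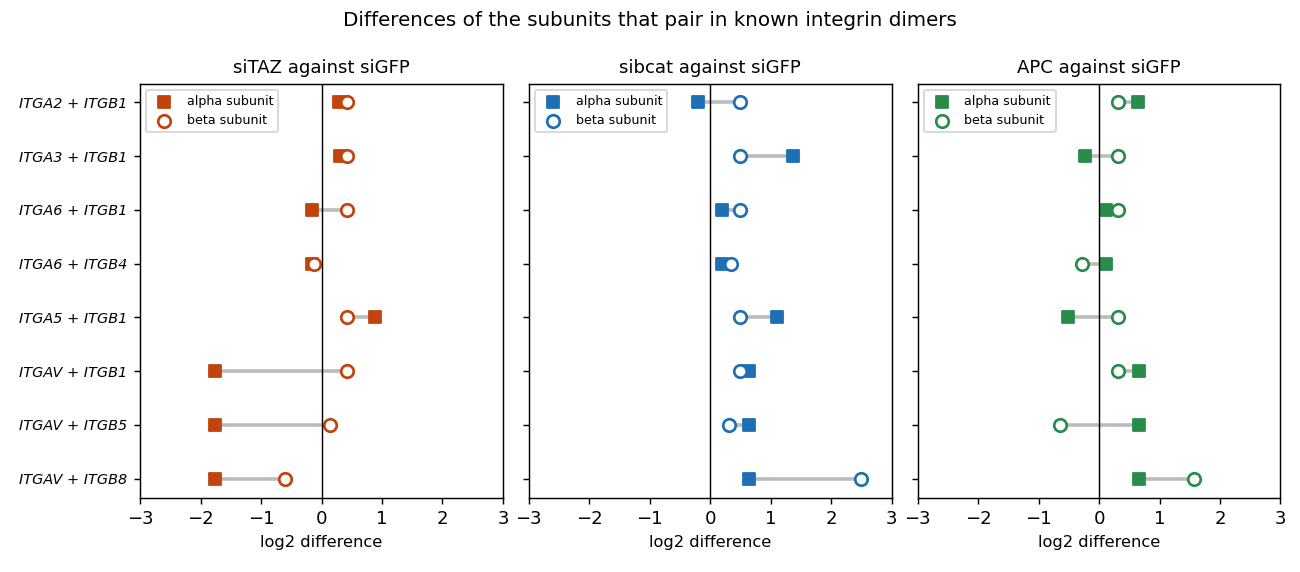
Log2 difference (x axis) from siGFP cells of the alpha (square) and beta (circle) subunit of 8 known integrin pairs in siTAZ, sibcat and APC cells. In siTAZ cells ITGAV lies far left of each of its beta partners, and in APC cells ITGAV and ITGB5 lie on opposite sides of 0.

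Set side by side as pairs, the subunits did not always move together, as the plot of known pairs shows. The latent TGF-beta receptor pair, ITGAV and ITGB8, was called in the same direction in every group: both lower in siTAZ cells (-1.76 and -0.60), both higher in sibcat cells (0.65 and 2.48) and both higher in APC cells (0.66 and 1.56). The siTAZ call of ITGB8 carries the limits given above. The vitronectin receptor pair, ITGAV and ITGB5, was called in opposite directions in APC cells (0.66 and -0.64). The fibronectin receptor pair, ITGA5 and ITGB1, was called higher together in siTAZ cells (0.88 and 0.42) and in sibcat cells (1.10 and 0.50), and in opposite directions in APC cells (-0.51 and 0.32). The collagen receptor pair, ITGA2 and ITGB1, was called higher together in siTAZ and APC cells. It was called in opposite directions in sibcat cells (-0.20 and 0.50), where the ITGA2 call lies at the threshold. In both of these pairs the siTAZ call of ITGB1 rests on its brightest probe set alone, as given above. The hemidesmosome pair, ITGA6 and ITGB4, had no call in any group in the brightest probe sets. As given above, the second ITGA6 set was called lower in siTAZ and higher in APC cells. With the replicate letter as a block, ITGB4 was called higher in sibcat and lower in APC cells. These are mRNA levels, and protein or surface amounts were not measured.

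Setting the groups against each other showed where they differed beyond the shared control. In siTAZ against sibcat cells, ITGA2 was higher and 5 genes were lower, against 17.6% and 16.6% of all genes. For comparisons among these groups, the share of called genes among those reaching the median level was not computed. Against siGFP cells it was 39.8% to 48.1%, well above the shares of all genes. ITGB8 differed by -3.09 between siTAZ and sibcat cells (SE 0.16, limma adjusted p = 1.4e-10), an 8.51-fold gap, and ITGAV by -2.40 (SE 0.094, limma adjusted p = 3.1e-12). ITGA3, ITGB4 and ITGA6 differed by -1.07, -0.47 and -0.35. ITGA5 differed by -0.22 (95% interval -0.40 to -0.04) and ITGB5 by -0.18 (-0.32 to -0.03), both without a call. The block on the replicate letter called both (limma adjusted p = 0.0069 and 0.012). ITGA5 was also called without siTAZ array A or sibcat array D (limma adjusted p = 0.011 and 0.049), and ITGB5 without siTAZ array C or sibcat array B (limma adjusted p = 0.046 and 0.027). In all, ITGA5 gained the call in 7 of 21 alternatives and ITGB5 in 9. A dimmer ITGB5 set was called lower, by 0.57 (limma adjusted p = 5.0e-05). Another ITGB5 set differed by 0.0025, and the last had means of 6.20 in siTAZ and 5.96 in sibcat cells. ITGB1 differed by -0.07 (-0.19 to 0.05).

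APC and sibcat cells, the 2 groups in which beta-catenin signalling was the target, differed in 7 of the 9 genes. In APC against sibcat cells ITGA2 was higher and 6 genes were lower, against 18.8% and 20.6% of all genes. ITGA5 differed by -1.60 between APC and sibcat cells (SE 0.087, limma adjusted p = 1.8e-10), a 3.04-fold gap, and ITGA3 by -1.60 (SE 0.11, limma adjusted p = 5.9e-09), a 3.03-fold gap. ITGB5, ITGB8, ITGB4 and ITGB1 differed by -0.95, -0.92, -0.62 and -0.18. The ITGB4 call ended with the mean of all its probe sets, at -0.12 (limma adjusted p = 0.26). The dimmer ITGB4 sets differed by -0.22, -0.155, 0.215 and 0.16, none of them called. The ITGB1 call ended without sibcat array C or APC array A (limma adjusted p = 0.073 and 0.062). The 2 other ITGB1 sets reaching the median level did not share it: 1 was called higher, by 0.24 (limma adjusted p = 0.046), and the other differed by -0.01. ITGA2 was 0.85 higher in APC cells (SE 0.072, limma adjusted p = 5.3e-08). ITGAV differed by 0.01 (95% interval -0.19 to 0.21), and ITGA6 by -0.07 (-0.21 to 0.08).

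In siTAZ against APC cells, 3 genes were higher and 4 lower, against 21.4% and 18.7% of all genes. ITGA5, ITGB5 and ITGA3 were higher in siTAZ cells by 1.39, 0.78 and 0.52. ITGAV, ITGB8, ITGA2 and ITGA6 differed by -2.42, -2.17, -0.35 and -0.28. In arrays A and B alone the calls of ITGA2 and ITGA3 ended (limma adjusted p = 0.11 and 0.053). The second ITGA2 set differed by -0.16 with no call. The ITGA6 call ended in arrays C and D alone (limma adjusted p = 0.079) and with the ACTB covariate (limma adjusted p = 0.0501). The second ITGA6 set was called lower, at -0.71 (limma adjusted p = 1.9e-07). ITGB4 had no call, nor had ITGB1 in its brightest set (0.10), but another ITGB1 set was called lower, at -0.48 (limma adjusted p = 0.00040). By group mean, 7 of the 9 genes were highest in sibcat cells and the other 2, ITGA2 and ITGAV, in APC cells. APC cells were lowest for 4 genes, siTAZ cells for 3, and sibcat and siGFP cells for 1 each.

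The other integrin subunits were counted beside these genes. All 16 were analysed, among them subunits of leukocytes, platelets and muscle, and 9 of them reached the median level in the siTAZ comparison. In siTAZ cells 2 rose and 3 fell, in sibcat cells 2 rose and 1 fell, and in APC cells 2 fell. Of all genes, 15.2% were called higher and 11.8% lower in siTAZ, 17.1% and 15.8% in sibcat, and 15.0% and 15.7% in APC cells. Counts of the gene and marker lists below have to be read against these shares too. ITGA7, a laminin-binding alpha subunit best known from muscle, was higher by 0.73 in siTAZ cells and 0.82 in sibcat cells and fell by 1.38 in APC cells. ITGA1, a second collagen-binding alpha subunit, rose by 0.96 in siTAZ cells and fell by 0.54 in sibcat cells and by 0.86 in APC cells. ITGAE, which binds E-cadherin, fell by 0.44 in siTAZ cells, and ITGB2, the leukocyte beta subunit, fell by 0.25 there. The remaining calls, lower in siTAZ and higher in sibcat cells, were of ITGA10, a dim collagen-binding subunit named here after its values were seen. The median difference of the 16 genes was 0.03 in siTAZ, -0.01 in sibcat and -0.05 in APC cells.

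Integrin ligands were next. Here 21 genes were analysed. In siTAZ cells 8 rose and 3 fell, with a median difference of 0.07. CCN2, a matricellular protein and a classic target of TAZ and YAP1, fell by 2.49, and its relative CCN1 fell by 0.97. COL4A2, a basement membrane collagen, rose by 0.63, and NPNT, a kidney basement membrane ligand, by 0.64. In sibcat cells 9 rose and 2 fell, with a median difference of 0.23. The laminin chains LAMC1 and LAMB1 rose by 1.07 and 0.80, fibronectin (FN1) rose by 0.86, and CCN2 fell by 2.18. In APC cells 3 rose and 6 fell, with a median difference near 0. CCN2, NPNT, CCN1 and COL4A2 fell there, with differences of -3.49, -2.28, -2.14 and -0.96. The median level was reached by 14 ligand genes. Of these, 7 rose and 3 fell in siTAZ, 9 and 2 in sibcat, and 3 and 6 in APC cells. Of all genes at that level, 39.8%, 48.1% and 43.3% were called in these groups.

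Of 30 adhesion plaque genes, the proteins that couple integrin tails to actin, 28 were analysed, and FLNA and CRK were not analysed here. In siTAZ cells 5 rose and 5 fell, in sibcat cells 7 rose and 9 fell, and in APC cells 4 rose and 8 fell. Their median differences were 0.07, -0.03 and -0.04. All called plaque genes reached the median level, as did 25, 26 and 25 genes of the list in siTAZ, sibcat and APC cells. Of all genes at that level, 39.8%, 48.1% and 43.3% were called in these groups. FERMT2, which encodes kindlin-2, an activator of integrins, fell by 1.51 in sibcat cells and by 1.39 in APC cells. TNS3, a tensin that binds beta subunit tails, rose by 1.56 in sibcat cells and by 0.84 in APC cells. LIMS1, a partner of integrin-linked kinase, rose by 0.54 in siTAZ cells and fell by 1.15 in APC cells. Its binding partner RSU1 fell by 0.61 in sibcat cells and by 0.77 in APC cells. In siTAZ cells the inhibitor of integrin activation ITGB1BP1 fell by 0.59, the talin-binding KANK2 fell by 0.53 and the parvin PARVB rose by 0.49. Vinculin (VCL) rose by 0.63 in sibcat cells.

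Hemidesmosome genes and tetraspanins, the membrane proteins that laterally bind laminin receptors, were counted as 1 list of 12. Of these, 11 were analysed, and COL17A1 was not analysed here. In siTAZ cells 4 rose and 7 had no call, in sibcat cells 7 rose and 1 fell, and in APC cells 1 rose and 3 fell. Median differences were 0.04 in siTAZ, 0.46 in sibcat and 0 in APC cells. The median level was reached by 9 genes of this list. Of these, 4 rose in siTAZ, 6 rose and 1 fell in sibcat, and 1 rose and 2 fell in APC cells. Of all genes at that level, 39.8%, 48.1% and 43.3% were called in these groups. DST, which encodes a plaque protein that links keratin to hemidesmosomes, rose by 0.49 in siTAZ, 0.91 in sibcat and 0.30 in APC cells. The tetraspanin CD82 rose by 0.52 in siTAZ and 0.96 in sibcat cells, and TSPAN4 by 0.38 and 0.82. CD63 rose by 0.27 in siTAZ cells and fell by 0.71 in APC cells. Plectin (PLEC), a plaque protein that binds ITGB4, rose by 0.74 in sibcat cells, and the keratin gene KRT5 fell by 0.81 in APC cells.

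Genes of TGF-beta activation and response were counted beside ITGB8. Here 12 genes were analysed. In siTAZ cells 6 rose and 2 fell, in sibcat cells 4 rose and 2 fell, and in APC cells 3 rose and 4 fell. Median differences were 0.35, 0.23 and 0.07. The median level was reached by 11 of these genes. Of the 11, 5 rose and 2 fell in siTAZ, 4 and 2 in sibcat, and 3 and 4 in APC cells. Of all genes at that level, 39.8%, 48.1% and 43.3% were called in these groups. TGFBR1, a receptor for the released growth factor, fell by 1.73 in siTAZ cells, and its partner receptor TGFBR2 rose by 0.60 in siTAZ and 1.14 in sibcat cells. The ligand TGFB2 rose by 0.60, 0.99 and 0.78 in siTAZ, sibcat and APC cells. LTBP3, which tethers latent TGF-beta to the matrix, rose by 0.67, 1.57 and 0.62 in the same order of groups. LTBP2 fell by 2.42 in APC cells. SMAD7, an inhibitor that the pathway itself induces, fell by 0.71 in sibcat cells and by 1.04 in APC cells.

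Over the 16 arrays, 13010 genes had a group mean reaching the median level, and each was set against the 3 integrin genes with the widest group means. The genes most like ITGB8 were TNC, an extracellular matrix protein that integrins bind (Pearson r = 0.988), the adhesion molecule AMIGO2 (r = 0.987) and the BMP antagonist NOG (r = 0.986). Those most like ITGAV were RSPRY1 (r = 0.996), the surface protein CD109 (r = 0.994) and TMEM30A, a subunit of lipid flippases (r = 0.993). Those most like ITGA5 were the transcription factor gene SP1 (r = 0.983), the growth factor gene GRN (r = 0.983) and LMBR1L (r = 0.982). The 16 arrays fall into 4 groups and share the replicate letters, so each r is a description of these arrays.

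RNA quality and cell mixture were read beside these results. The 3′ minus 5′ signal of ACTB, larger where RNA is more degraded or less fully copied, was 2.56 ± 0.39 in siTAZ, 2.30 ± 0.24 in sibcat, 2.08 ± 0.32 in APC and 2.05 ± 0.16 in siGFP cells (SD, n = 4 each). An exact two-sided permutation test against siGFP gave p = 0.057 for siTAZ, 0.17 for sibcat and 0.91 for APC cells, where 4 against 4 arrays allow no p below 0.029. The part of RNA quality in the siTAZ results was not tested beyond the fit with ACTB as a covariate. The same signal of GAPDH was 0.50 ± 0.11 in siTAZ, 0.34 ± 0.06 in sibcat, 0.27 ± 0.04 in APC and 0.35 ± 0.07 in siGFP cells (SD, n = 4 each), with exact permutation p = 0.086, 0.83 and 0.17 against siGFP for siTAZ, sibcat and APC cells. Of 8 epithelial markers, 1 rose and 2 fell in siTAZ cells, 2 rose and 1 fell in sibcat cells, and 5 fell in APC cells. CDH1 fell by 1.13 in siTAZ cells and rose by 0.41 in sibcat cells, whereas CDX2 rose by 0.48 in siTAZ cells and fell by 0.96 in sibcat cells. Of 4 leukocyte markers analysed, CD14 rose by 0.59 in siTAZ, 1.63 in sibcat and 0.48 in APC cells, with a mean of 6.24 in sibcat cells, against 4.60 in siGFP cells. ITGB2, on the same list, fell by 0.25 in siTAZ cells, and CD3E and PTPRC were not called. PTPRC, the defining leukocyte marker, was dim, between 3.01 and 3.15 in all groups. In bulk RNA, fewer cells with a gene and less of its RNA per cell cannot be told apart.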

How the data were processed

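The authors deposited 1 table of log2 levels for 54675 probe sets on 16 arrays, made with RMA per the submitters' processing notes, with no version given. RMA forces the arrays to 1 distribution, which hides any shift of total RNA. No counts lie behind array values, so precision rests on how many arrays there are. Replicates are labelled biological, but nothing says that they were cultured separately. The p-values therefore describe the scatter among these 16 samples, part of which may be technical.

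The probe annotation pairs 41097 probe sets with 1 gene, and a gene was read from its brightest such set. All 16 arrays entered 1 limma 3.58.1 fit (R 4.3.3, lmFit and eBayes, no block) with 6 comparisons, and p-values were Benjamini-Hochberg adjusted over all probe sets within a comparison. Exact two-sided permutation tests were used for RNA quality. The script was tested on simulated data. The integrin genes and the partner lists were chosen with earlier results of these data known. Named besides them were the genes checking the labels, the other integrin subunits called against siGFP, up to 4 called genes with the largest change per partner list and comparison with siGFP (both limited to genes reaching the median level), and the 3 genes most like each of the 3 widest-ranging integrin genes.

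Replicate letters come from the labels. Deviations from the group means correlated between arrays of the same letter in all 24 pairs (r from 0.17 to 0.57), so the letter was taken as a block in an alternative fit. Arrays of different letters within A and B, or within C and D, correlated as much (0.13 to 0.50), and between those 2 sets of letters the correlation was negative (-0.58 to -0.12). Deviations from a group mean cancel out within the group, so the negative values follow from the positive ones and add no observation. Alternatives covered the block, A and B or C and D alone, an ACTB covariate, probe set choice, normalisation, the level filter, the prior and leaving out each array. Promoters are from RefSeq (GRCh38.p14). Proteins and gene positions were not used here. Figures were drawn with matplotlib 3.10.9.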

Additional observations from a re-analysis of the deposited data

Results flagged for a closer look

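In 36 groups of 4 arrays (9 genes in 4 groups), 3 had 1 array far from the other 3 by Dixon's test at the 95% level, which chance gives in about 1 in 20 groups. ITGA2 in siGFP array B was 8.56, against 8.82 to 8.85 in the other siGFP arrays. ITGA3 in siTAZ array A was 7.31, against 7.14 to 7.15 in the other siTAZ arrays. ITGA6 in siGFP array C was 10.95, against 10.77 to 10.79 in the other siGFP arrays.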

How the results depend on the processing

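Counts of called integrin genes per comparison and direction were recomputed under 13 alternatives and without each of 16 arrays. With an alternative, 146 of 156 counts stayed within 1.5 times, and without 1 array 89 of 96 did. The count lower in sibcat against siGFP cells, which is ITGA2 alone, was 0 in arrays A and B alone and in arrays C and D alone. It was also 0 with the ACTB covariate, with only the 2 groups compared and with the mean of all probe sets. The same held with arrays centred on their medians and without probe sets whose names end in _x_at or _s_at. The brightest sets of ITGA3, ITGB1, ITGB4 and ITGB5 are among the sets so named. The count ran from 0 to 1 when 1 array was left out. The count lower in siTAZ against siGFP cells was 1 in arrays A and B alone. The count lower in APC against siGFP cells was 4 with the ACTB covariate, which added ITGA3 and ITGB4. The count lower in APC against sibcat cells was 3 without _x_at and _s_at probe sets, a setting that leaves ITGA3 with no value. Of the differences called in the fit of all 16 arrays, 3 turned their direction under an alternative and lost the call. ITGB1 in APC against sibcat cells was 0.019 with the mean of all probe sets. Without _x_at and _s_at sets, which leaves a dim set, ITGB4 was 0.09 in siTAZ and 0.22 in APC cells against sibcat cells. Differences without a call turned too. ITGB4 reached -0.155 in sibcat and 0.06 in APC cells against siGFP cells, and -0.14 in siTAZ against APC cells. ITGB1 reached -0.22 in siTAZ against APC cells. In APC against sibcat cells ITGA6 reached 0.05 and ITGAV -0.04. The replicate block changed the 6 calls given with the results and no other. Of the 54 differences (9 genes in 6 comparisons), 12 lost a call and 12 gained one under at least 1 alternative, and 2 lost and 5 gained one without 1 array. The falls and rises of ITGAV and the rises of ITGB8 in sibcat and APC cells kept their calls in all 21 alternatives. Dim probe sets limit what can be said of ITGB4 beyond its brightest set.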
